A study of Capra hircus with 6 samples.

Results

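The 10 transcripts described here belong to the ATF4-CHOP branch of the integrated stress response. They were ATF4, ATF3, DDIT3 (CHOP), CEBPB, TRIB3, PPP1R15A (GADD34), SESN2, DDIT4 (REDD1), ASNS and PSAT1. All 10 were found by symbol among the 15944 genes of the count table, and all 10 were among the 12588 genes that passed the filter on low counts. The cells were wild-type secondary hair follicle dermal papilla cells (SHF-DPCs), the mesenchymal cells at the base of the cashmere-producing follicle, grown as passaged primary cultures from the skin of 3-year-old Albas cashmere goats. RNA-seq was performed on 3 control cultures in medium and on 3 cultures given all-trans retinoic acid (ATRA), the acid form of vitamin A, at 0.1 mM for 24 h. The study's methods state that cells of 3 individual animals were treated, but the labels do not tie a library to an animal, so the p-values measure the spread between these libraries only. The comparison asks how the stress response transcripts stood after ATRA.

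The libraries held 36887160 to 38012771 counts in the control group and 35532339 to 36870939 counts in the ATRA group. Levels are given as normalized CPM (counts relative to library size), with each library scaled by the trimmed mean of M-values (TMM), and changes as log2 fold change (log2FC) of ATRA over control with its standard error (SE). The treatment moved most of the transcriptome. By edgeR's quasi-likelihood test at an adjusted p under 0.05, 40.9% of the genes tested were called higher and 38.7% were called lower, and in 80.1% of genes the control and ATRA libraries did not overlap. TMM factors averaged 0.847 in control libraries and 1.18 in ATRA libraries. With library size as the only scaling, the median log2FC of all genes was 0.52 instead of 0.04, and 7921 genes were called higher and 2861 lower instead of 5151 and 4877. Changes are therefore read against the median gene, and a direction that turned under this scaling is named as such.

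The markers of dermal papilla cells that could be tested fell as well. All 7 of the 11 listed markers that passed the filter were lower, although LEF1 lost its call with library size only (log2FC -0.06, edgeR adjusted p = 0.586). ACTA2 (log2FC -9.62), VCAN (-5.66) and COL1A1 (-5.62) fell the most, and reads of ACTA2 may be shared with near-identical actin genes. The summed level of the 7 was 56334 to 59044 CPM in control libraries and 2400 to 2476 CPM in ATRA libraries. Most of the control sum was COL1A1 (mean 27440 CPM) and VIM (mean 19158 CPM), so the sum says little of the other markers. PROM1, ALPL and CORIN had at most 1 count in any library. SOX2 did not pass the filter either, but had more counts in each ATRA library (10, 16 and 9) than in each control library (5, 0 and 2). None of 7 keratinocyte markers passed the filter. The summed level of the endothelial markers tested (PECAM1, TEK, VWF) was 0.591 to 1.05 CPM in control and 6.19 to 9.11 CPM in ATRA libraries, with CDH5 at no more than 1 count in any library. Most of the sum in ATRA libraries was PECAM1, at 0 in every control library and 6.10 ± 1.43 CPM after ATRA, while VWF was not called (log2FC 0.06, edgeR adjusted p = 0.909) and KDR, with few counts and fewer in each ATRA library than in each control library, did not pass the filter. That of the leukocyte markers tested (CD14, CD68) was 9.15 to 12.8 against 41.1 to 44.0 CPM. CSF1R (5, 3 and 4 counts in control, 7, 3 and 5 in ATRA libraries) and CD3E (1, 0 and 1 against 2, 5 and 3) did not pass the filter. PTPRC and LYZ, and the melanocyte genes TYR, DCT, MLANA and SOX10, were not analysed here. The summed level of the melanocyte markers tested (MITF, PMEL) was 16.1 to 17.6 against 32.2 to 39.0 CPM. The melanocyte markers went opposite ways, with MITF called higher (log2FC 1.33) and PMEL lower (-0.90). Their part in the changes of the stress response transcripts was not tested. In bulk RNA, fewer cells of a type and less RNA per cell cannot be told apart.

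The integrated stress response begins when a kinase (PERK, GCN2, PKR or HRI) phosphorylates the translation factor eIF2. Bulk protein synthesis then falls while the ATF4 mRNA, through its upstream open reading frames, is translated more. ATF4 is a transcription factor that switches on genes for amino acid supply and, with its target CHOP, genes tied to prolonged stress and cell death. PPP1R15A closes the loop by bringing protein phosphatase 1 to eIF2. The values here are mRNA counts and hold no measure of ATF4 protein or of eIF2 phosphorylation.

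Of the 10 transcripts, 8 were called higher and 2 lower in ATRA-treated cells, where 40.9% and 38.7% of all genes were so called. The control and ATRA libraries did not overlap for any of the 10, as for 80.1% of all genes. The 8 were DDIT4, ATF3, PPP1R15A, TRIB3, DDIT3, CEBPB, ATF4 and SESN2, in order of log2FC, and the 2 were ASNS and PSAT1. The median log2FC of the 10 was 1.31, beside 0.04 for all genes tested. By the thresholds the study used for differentially expressed genes, an absolute log2FC above 1 and an unadjusted p under 0.05, 5 were higher (DDIT4, ATF3, PPP1R15A, TRIB3 and DDIT3) and 1 was lower (PSAT1). ASNS, at a log2FC of -0.97, passed the fold threshold too when the third control library (-1.01) or the first ATRA library (-1.01) was left out, which makes 2 lower. With library size only, CEBPB (1.40) and ATF4 (1.18) passed it as well. Those thresholds called 13.7% of all genes higher and 17.3% lower. Counts on the 10 genes made up 0.214%, 0.204% and 0.204% of all counts in the control libraries and 0.408%, 0.376% and 0.400% in the ATRA libraries.

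**Figure D1:**
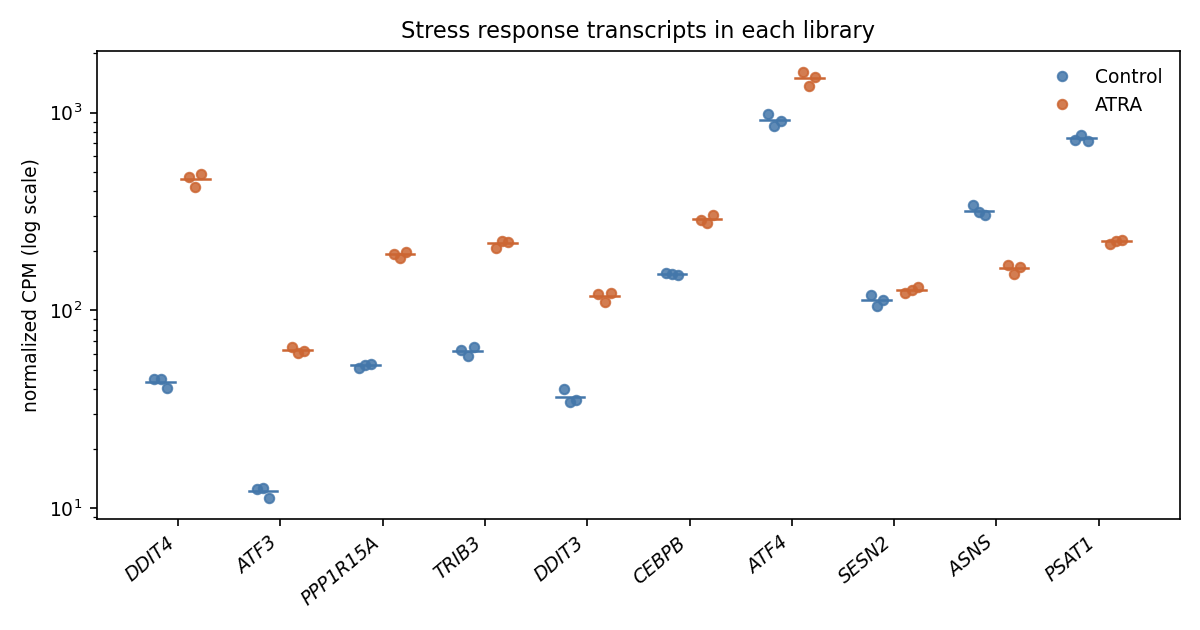
Normalized CPM on a log axis of the 10 stress response transcripts in each library, ordered by log2FC. Points are the 3 control and 3 ATRA libraries and the short lines are group means; the ATRA points lie above the control points for 8 genes and below them for ASNS and PSAT1.

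Among the transcription factors, ATF4 itself changed moderately. Its level was 987, 854 and 903 CPM in the control libraries and 1603, 1361 and 1509 CPM in the ATRA libraries. Every ATRA library lay above every control library, with a coefficient of variation of 7.35% in control and 8.18% in ATRA libraries, the latter the largest of the 10 genes in that group. The mean rose 1.63-fold, from 915 ± 67.3 to 1491 ± 122 CPM (SD, n = 3; log2FC 0.70, SE 0.0698, edgeR adjusted p = 3.32e-08). Among all genes tested, 2601 had a higher log2FC than ATF4.

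DDIT3 encodes CHOP, a C/EBP-family factor that ATF4 induces and that favours cell death when stress persists. Its level was 39.9, 34.5 and 35.3 CPM in the control libraries and 121, 110 and 123 CPM in the ATRA libraries. The lowest ATRA library stood well above the highest control library. The mean rose 3.23-fold, from 36.6 ± 2.94 to 118 ± 6.59 CPM (SD, n = 3; log2FC 1.69, SE 0.0709, edgeR adjusted p = 9.84e-14).

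ATF3, a stress-inducible factor of the same basic leucine zipper class, was at 12.5, 12.7 and 11.3 CPM in the control libraries and at 65.3, 61.2 and 62.3 CPM in the ATRA libraries. The libraries of each group lay close together and the groups were far apart. The mean rose 5.17-fold, from 12.2 ± 0.748 to 62.9 ± 2.12 CPM (SD, n = 3; log2FC 2.37, SE 0.0769, edgeR adjusted p = 2.04e-15). These CPM values rested on 363 to 410 counts per control library and 2577 to 2821 per ATRA library, the fewest of any of the 10.

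CEBPB is a C/EBP factor that pairs with ATF4 and CHOP and also serves in inflammation and differentiation. It was at 154, 153 and 151 CPM in the control libraries, the tightest group of the 10 genes, and at 288, 278 and 302 CPM in the ATRA libraries. The groups did not overlap. The mean rose 1.89-fold, from 153 ± 1.47 to 289 ± 12.3 CPM (SD, n = 3; log2FC 0.92, SE 0.0546, edgeR adjusted p = 1.88e-11), a little under the study's fold threshold.

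The feedback genes rose by similar factors. PPP1R15A was at 51.3, 53.1 and 53.8 CPM in the control libraries and at 193, 184 and 198 CPM in the ATRA libraries. Its mean rose 3.64-fold, from 52.7 ± 1.29 to 192 ± 7.26 CPM (SD, n = 3; log2FC 1.86, SE 0.0586, edgeR adjusted p = 1.27e-15). PPP1R15B, the constitutive cofactor of the same phosphatase, did not pass the test (log2FC 0.09, edgeR adjusted p = 0.177, 114 ± 6.46 and 122 ± 8.0 CPM), but was called higher with library size only (log2FC 0.57, adjusted p = 7.73e-07), close to the 0.52 of the median gene. Within a library there were 46.2 ± 1.57 counts of PPP1R15A per 100 counts of PPP1R15B in control cells and 158 ± 15.7 in ATRA cells, a ratio 3.41-fold higher.

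TRIB3, a pseudokinase that CHOP and ATF4 induce and that restrains ATF4 and AKT, was at 62.8, 59.0 and 65.2 CPM in the control libraries. It was at 207, 225 and 222 CPM in the ATRA libraries, again with no overlap. The mean rose 3.50-fold, from 62.3 ± 3.16 to 218 ± 9.68 CPM (SD, n = 3; log2FC 1.81, SE 0.0612, edgeR adjusted p = 3.83e-15). Of the other tribbles genes, TRIB1 rose (log2FC 0.44) and TRIB2 fell (log2FC -0.96). In the order of log2FC, TRIB3 could not be separated from PPP1R15A above it or from DDIT3 below it, since the ranges of their ATRA libraries over the control mean overlapped. The ranges of all other neighbours in that order were apart.

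DDIT4 and SESN2 both restrain mTORC1, the kinase complex that drives growth when nutrients are plentiful, and they differed widely here. DDIT4, which acts through the TSC complex, had the highest log2FC of the 10 genes. It was at 44.8, 45.1 and 40.6 CPM in the control libraries and at 472, 423 and 490 CPM in the ATRA libraries. Its mean rose 10.6-fold, from 43.5 ± 2.50 to 462 ± 35.1 CPM (SD, n = 3; log2FC 3.41, SE 0.0710, edgeR adjusted p = 3.14e-18). Only 272 of all genes tested had a higher log2FC.

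SESN2 encodes a leucine sensor that holds back mTORC1 through GATOR2. It was at 119, 105 and 113 CPM in the control libraries and at 123, 126 and 132 CPM in the ATRA libraries. The groups were apart by a narrow margin. The mean was 112 ± 7.12 CPM in control and 127 ± 4.47 CPM in ATRA cells (SD, n = 3; log2FC 0.18, SE 0.0606, edgeR adjusted p = 0.0122). This call was lost without the second control library (log2FC 0.12, adjusted p = 0.0798) and without the third ATRA library (log2FC 0.14, adjusted p = 0.0781), and SESN2 stood at the 57.1 percentile of log2FC among all genes. Of its paralogs, SESN1 rose from 2.83 ± 0.183 to 5.64 ± 0.405 CPM (log2FC 1.00) and SESN3 from 5.96 ± 0.152 to 12.6 ± 1.2 CPM (log2FC 1.08). There were 38.9 ± 3.69 DDIT4 counts per 100 SESN2 counts in control libraries and 364 ± 25.8 in ATRA libraries.

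The amino acid synthesis genes went the other way. ASNS, asparagine synthetase and a classical ATF4 target, was at 340, 316 and 303 CPM in the control libraries and at 169, 153 and 166 CPM in the ATRA libraries. Each ATRA library was far below each control library. The mean was 1.96-fold lower in ATRA cells, at 163 ± 8.49 against 320 ± 18.5 CPM (SD, n = 3; log2FC -0.97, SE 0.0605, edgeR adjusted p = 3.94e-11).

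PSAT1, the aminotransferase of serine synthesis, was at 729, 770 and 721 CPM in the control libraries and at 216, 225 and 227 CPM in the ATRA libraries. The libraries of each group were close to each other. The mean was 3.32-fold lower, at 223 ± 5.89 against 740 ± 26.1 CPM (SD, n = 3; log2FC -1.73, SE 0.0576, edgeR adjusted p = 2.97e-15). Of all genes tested, 11363 had a higher log2FC than PSAT1.

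**Figure D2:**
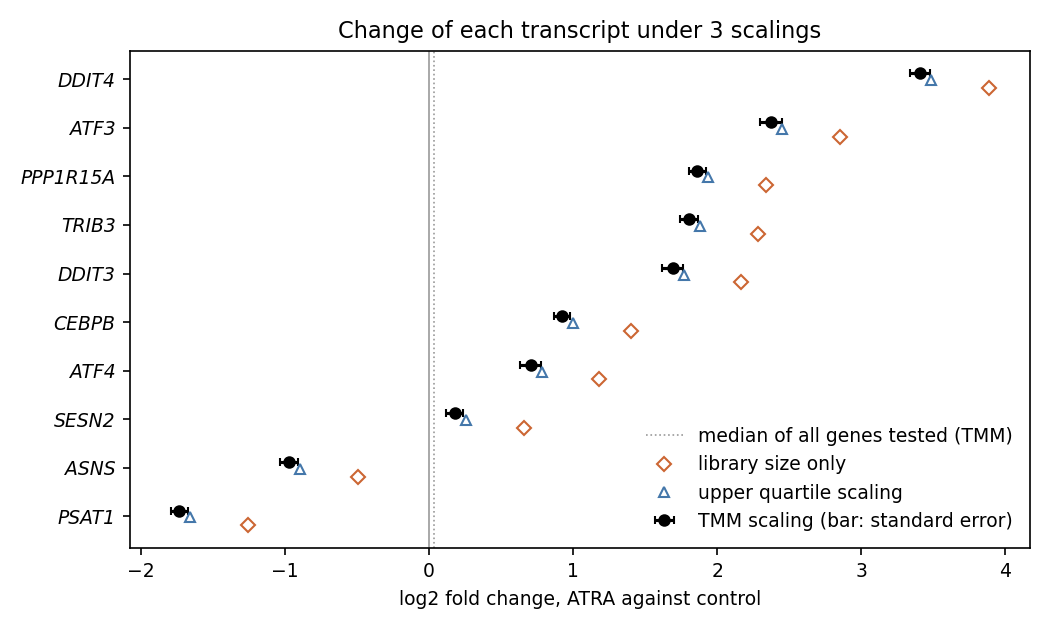
Log2FC of the 10 transcripts in ATRA against control cells under TMM scaling (filled circles, bars are the SE), upper quartile scaling (triangles) and library size only (diamonds). Library size alone moves every gene to the right by about the shift of the median gene, and no gene crosses 0: SESN2 goes from 0.18 to 0.66 and ASNS from -0.97 to -0.49.

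Because TMM, upper quartile, DESeq2 size factor and library size scaling each move all genes together, the members were also set against ATF4 within each library, a ratio that no scaling changes. Per 100 ATF4 counts, DDIT3 had 4.04, 4.03 and 3.91 counts in the control libraries and 7.52, 8.11 and 8.14 in the ATRA libraries. The CHOP transcript thus rose relative to that of ATF4, by 1.98-fold. ATF3 rose from 1.33 ± 0.130 to 4.23 ± 0.229 counts per 100 ATF4 counts (3.18-fold), and DDIT4 from 4.77 ± 0.436 to 31.0 ± 1.52 (6.51-fold). TRIB3 went from 6.83 ± 0.436 to 14.7 ± 1.80 and PPP1R15A from 5.79 ± 0.532 to 12.9 ± 0.764.

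CEBPB nearly followed ATF4, with 16.7 ± 1.16 counts per 100 ATF4 counts in control and 19.5 ± 1.33 in ATRA libraries. The groups were barely apart, at 17.92 in the highest control library and 17.94 in the lowest ATRA library. SESN2 was lower relative to ATF4, at 8.56 ± 0.817 against 12.3 ± 0.237. ASNS had 34.4, 36.9 and 33.6 counts per 100 ATF4 counts in the control libraries and 10.6, 11.3 and 11.0 in the ATRA libraries, 3.19-fold fewer. PSAT1 had 81.3 ± 8.22 in control and 15.0 ± 1.52 in ATRA libraries, 5.41-fold fewer. Per 100 ASNS counts, DDIT3 had 11.4 ± 0.445 counts in control and 72.3 ± 1.40 in ATRA libraries, a 6.33-fold difference between a CHOP-side and an amino acid-side gene. In each of these ratios the groups did not overlap, and the two-sided exact permutation test gave p = 0.1, the smallest value that 3 against 3 libraries allow, also after Benjamini-Hochberg adjustment over the ratios.

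**Figure D3:**
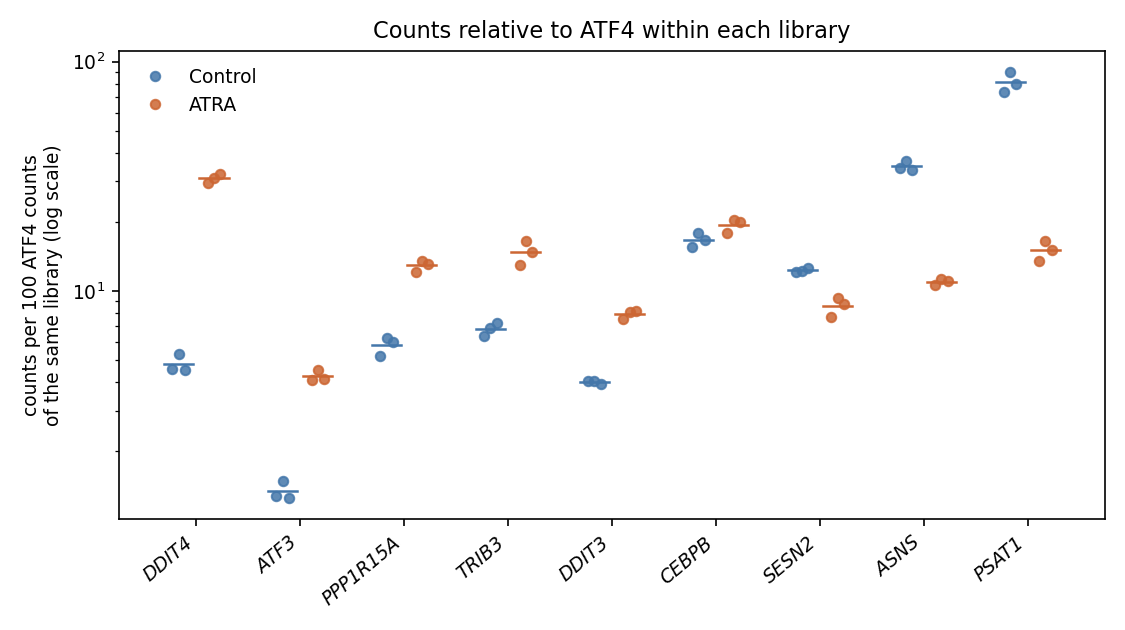
Counts of each of the other 9 transcripts per 100 ATF4 counts of the same library, on a log axis, with the 3 control and 3 ATRA libraries as points and group means as lines. DDIT4, ATF3, TRIB3, PPP1R15A and DDIT3 gained on ATF4, CEBPB was close to it (16.7 and 19.5), and SESN2, ASNS and PSAT1 lost.

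Upstream of ATF4, the 4 eIF2 kinases did not move together. EIF2AK3, which encodes PERK, the kinase of endoplasmic reticulum stress, rose from 56.9 ± 1.34 to 232 ± 13.3 CPM (log2FC 2.03, SE 0.0608, edgeR adjusted p = 6.24e-16). EIF2AK1, the heme-regulated HRI, rose less (log2FC 0.53), and EIF2AK2, the double-stranded RNA sensor PKR, fell from 52.4 ± 4.69 to 16.6 ± 3.53 CPM (log2FC -1.66, edgeR adjusted p = 1.89e-09). EIF2AK4, the amino acid sensor GCN2, did not pass the test (log2FC -0.09, adjusted p = 0.219) and was called higher with library size only (log2FC 0.39, adjusted p = 5.4e-05). Of 13 genes for the kinases, the eIF2 subunits, the exchange factor eIF2B and PPP1R15B, 7 were called higher, 3 lower and 3 neither, with a median log2FC of 0.19 (11 higher and 1 lower with library size only). The eIF2B subunits EIF2B4 (log2FC 0.73) and EIF2B2 (0.60) were higher, EIF2B1 was lower at -0.52 but not called with library size only (log2FC -0.04, edgeR adjusted p = 0.579), and the eIF2 subunit EIF2S2 was lower at -0.27 but higher at 0.21 with library size only.

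The fall of ASNS and PSAT1 was shared by the other listed enzymes of amino acid supply, but not by all of the amino acid transporters. All 11 other enzymes of amino acid and one-carbon synthesis were called lower, with a median log2FC of -0.82, and with library size only 10 of the 11 were called lower. PHGDH, which makes the substrate of PSAT1, went from 596 ± 22.6 to 152 ± 15.6 CPM (log2FC -1.97, SE 0.0707, edgeR adjusted p = 9.24e-15). PSPH, the last enzyme of the same route, had a log2FC of -0.90, so all 3 serine synthesis genes fell. CBS of transsulfuration fell (log2FC -1.45), as did mitochondrial MTHFD2 (-1.15).

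The 12 listed aminoacyl-tRNA synthetases, which charge tRNAs with amino acids and are ATF4 targets, were all called lower with TMM, at a median log2FC of -0.70, but with library size only 7 were called lower and 1 higher. All 12 lay below the median gene under both scalings. EPRS1 (log2FC -1.02), AARS1 (-0.81) and YARS1 (-0.80) had the lowest values. The amino acid transporters were split, with 4 of 9 called higher and 5 lower (median log2FC -0.16), or 5 and 2 with library size only, where the median turned to 0.32. Both chains of the cystine importer rose, SLC7A11 from 26.1 ± 0.902 to 70.5 ± 15.2 CPM (log2FC 1.44) and SLC3A2 from 307 ± 11.9 to 613 ± 32.6 CPM (log2FC 1.00), as did the glycine transporter SLC6A9 (1.01). The neutral amino acid transporters SLC1A4 (log2FC -1.01) and SLC1A5 (-0.54) and the cationic SLC7A1 (-0.72) fell, but SLC1A5 lost its call with library size only (log2FC -0.06, edgeR adjusted p = 0.262).

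A further list of 21 genes for stress regulators and secreted factors held ATF4 or CHOP targets and also SESN1, SESN3, TRIB1 and TRIB2. Those 4 were listed as paralogs of SESN2 and TRIB3, and all but TRIB2 were called higher. Of the 21 genes, 13 were called higher and 5 lower, with a median log2FC of 0.64 (17 higher and 2 lower with library size only). STC2, a secreted glycoprotein of stressed cells, rose from 3.93 ± 0.401 to 68.4 ± 2.50 CPM (log2FC 4.12), and the stress cytokine GDF15 from 4.22 ± 0.635 to 51.9 ± 2.72 CPM (log2FC 3.62). BCL2L11, the pro-apoptotic BIM that CHOP induces, rose from 3.94 ± 0.651 to 55.2 ± 0.843 CPM (log2FC 3.81). JDP2, a repressor related to ATF3, fell from 45.6 ± 3.03 to 8.32 ± 0.917 CPM (log2FC -2.45). NUPR1, also an ATF4 target, was called lower (log2FC -0.60) but not with library size only (log2FC -0.12, edgeR adjusted p = 0.12). CHAC1, a glutathione-degrading enzyme much used as a marker of ATF4 activity, did not pass the test (log2FC -0.02, edgeR adjusted p = 0.753), but was called higher with library size only (log2FC 0.46). Over the 53 genes of these 4 lists, the paralogs included, 17 were called higher and 33 lower. The median log2FC was -0.48, beside 1.31 for the 10 transcripts. With library size only 23 were called higher and 21 lower, and that median was 0.00, below the 0.52 of all genes.

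**Figure D4:**
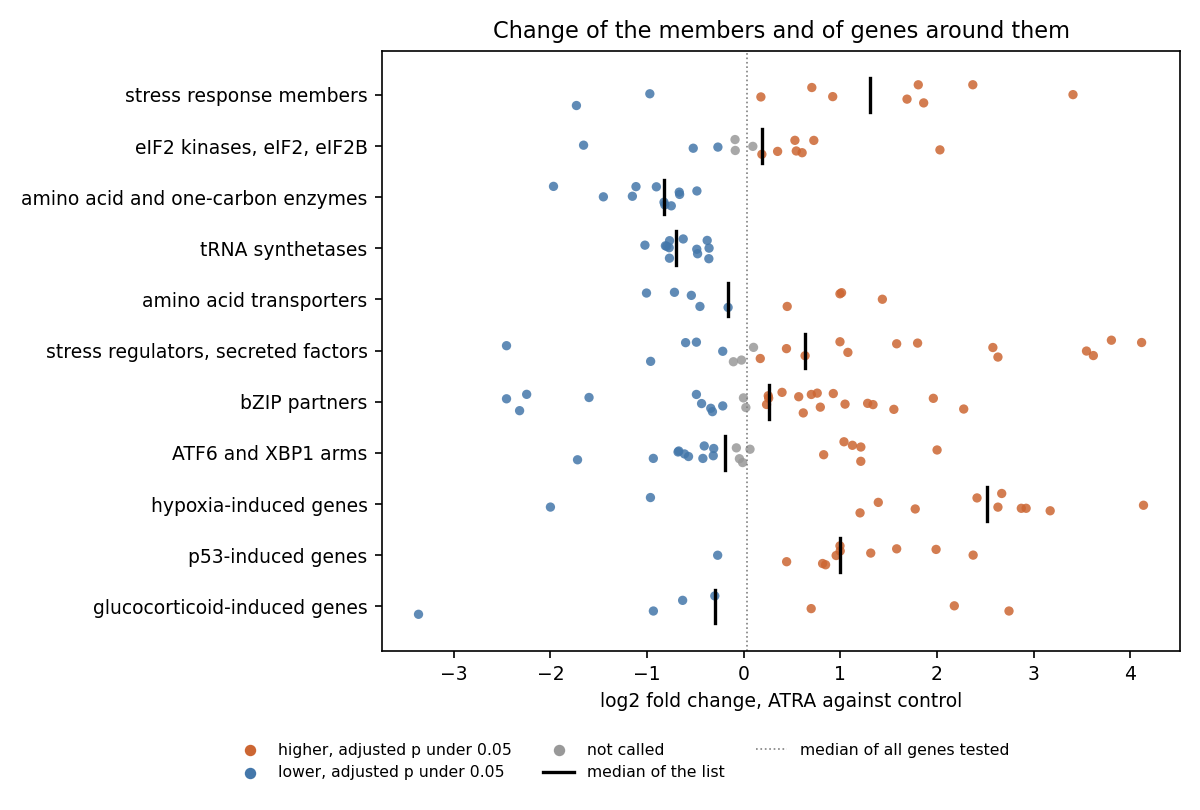
Log2FC in ATRA against control cells for each tested gene of the 10 transcripts and of 10 lists around them, with colour for the edgeR call at an adjusted p under 0.05, a black line at each list's median and a dotted line at the median of all genes (0.04). The enzymes (median -0.82) and tRNA synthetases (-0.70) lie wholly to the left of 0 with TMM, although 1 tRNA synthetase was called higher with library size only, and the hypoxia-induced genes (2.52) lie furthest to the right by median.

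ATF4, ATF3, DDIT3 and CEBPB act as dimers with other basic leucine zipper factors, and of 27 such factors 16 were called higher and 9 lower (median log2FC 0.26), or 21 and 4 with library size only. JUNB rose from 79.6 ± 3.60 to 386 ± 14.1 CPM (log2FC 2.28), while FOSL2 fell from 796 ± 18.8 to 160 ± 7.59 CPM (log2FC -2.32) and CREB3L1, which promotes collagen secretion, from 560 ± 63.0 to 118 ± 5.84 CPM (log2FC -2.25). MAFF (log2FC 1.96) and CEBPA (1.55) rose. CEBPG, which pairs with ATF4 at amino acid response genes, had a log2FC of -0.22 that turned to 0.26 with library size only.

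The other arms of the unfolded protein response gave a mixed picture. Of 20 genes under ATF6 and XBP1, 6 were called higher and 10 lower (median log2FC -0.19), against 12 and 4 with library size only, where the median turned to 0.29. HSPA5, the chaperone BiP, rose from 2159 ± 46.6 to 8645 ± 406 CPM (log2FC 2.0, SE 0.0616, edgeR adjusted p = 9.12e-16), and the chaperones HYOU1 and DNAJB9 rose by a log2FC of 1.21 each. The lectin chaperone CALR fell from 1807 ± 65.4 to 549 ± 30.8 CPM (log2FC -1.72), and MANF (-0.94) and PDIA3 (-0.68) fell too.

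Some of the 10 transcripts also answer to other inputs, so the lists of those inputs are set beside them. DDIT4 is a hypoxia-induced gene, and of 12 others 10 were called higher and 2 lower, with a median log2FC of 2.52. BNIP3 rose from 51.1 ± 1.64 to 460 ± 12.3 CPM (log2FC 3.17) and the glucose transporter SLC2A1 from 82.9 ± 1.11 to 628 ± 25.3 CPM (log2FC 2.92), and EGLN3 rose by a log2FC of 2.87. ADM (log2FC -2.0) and the collagen hydroxylase P4HA1 (-0.96) fell. DDIT4 is also induced by glucocorticoids, and of 7 others 3 were called higher and 4 lower (median log2FC -0.30), or 3 and 2 with library size only, where the median turned to 0.18. SGK1 (log2FC 2.75), PER1 (2.18) and DUSP1 (0.70) rose, while ZBTB16 (-3.36), TSC22D3 (-0.93) and FKBP5 (-0.63) fell. FKBP5 lost its call with library size only (log2FC -0.15, edgeR adjusted p = 0.104).

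SESN2 and PPP1R15A are also p53 or DNA damage-induced genes, and of 11 others 10 were called higher and 1 lower (median log2FC 1.00), or 11 and 0 with library size only. CDKN1A, the cell cycle inhibitor p21, rose from 155 ± 3.91 to 616 ± 13.0 CPM (log2FC 1.99). BTG2 (log2FC 2.37) and the pro-apoptotic BBC3 (1.58) rose, and PHLDA3 had a log2FC of -0.27 that turned to 0.21 with library size only. The lists overlap. SESN1 and BBC3 of the p53 list and VEGFA of the hypoxia list are also among the stress regulators and secreted factors above. So are JDP2, ATF5 and CEBPG of the basic leucine zipper list. Which of the hypoxia, glucocorticoid or p53 inputs bore on DDIT4, PPP1R15A or SESN2 was not tested.

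The genes whose pattern over the 6 libraries lay closest to the 2 named factors were found by the root mean square distance of log2 CPM, each taken from its control mean, among 8597 other genes. Nearest to ATF4 were TIMM50 (distance 0.0197), CEP164 (0.0279) and HPS1 (0.0320), none of them among its listed targets, while CEBPB ranked 926. Nearest to DDIT3 were ALAS1 (0.0340), SLC27A1 (0.0536) and APBB3 (0.0540), and TRIB3 ranked 54 and PPP1R15A 81. With 3 libraries a group, this likeness mostly reflects an equal fold change.

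In the annotation deposited with the counts, ATF4, DDIT3 and PPP1R15A share the KEGG pathway of protein processing in the endoplasmic reticulum. Of its 158 tested genes, 79 were called higher and 58 lower, with a median log2FC of 0.17. Of all genes tested, 40.9% were called higher and 38.7% lower, with a median log2FC of 0.04. DDIT3, TRIB3, PPP1R15A and CEBPB share the GO term for the response to endoplasmic reticulum stress, in which 28 of 55 tested genes were called higher and 20 lower. These 4 members are among the 8 already called higher above. DDIT3 and ATF3 are the only 2 genes under the term for the CHOP-ATF3 complex.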

How the data were processed

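SHF-DPC RNA was measured by poly(A)-selected RNA-seq in 3 control and 3 ATRA libraries, all of batch 1 per the labels. The authors cleaned reads with fastp and TrimGalore and deposited raw whole-number counts per gene. HISAT2, featureCounts and DESeq2 are named, without version or role, in the submitters' processing notes. The genome build, annotation and strand setting are not given in the sources used here, so reads shared with overlapping genes cannot be told apart and no coordinates are printed. All 15944 symbols matched the gene name table.

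From the counts, edgeR 4.0.16 (R 4.3.3) kept 12588 genes (filterByExpr by group), scaled them by TMM and ran the robust two-sided quasi-likelihood test over all 6 libraries with no covariate and Benjamini-Hochberg adjustment over all genes tested. The prior count was 0.125, and the SE is the absolute log2FC over the square root of F. Since raw counts call for a count model, the t.test function of R that the study describes served only as an alternative. On simulated counts of 12097 genes for this comparison, 100 of 100 genes changed by a log2FC of 1 and 100 of 100 changed by 2 were called, with 12 unchanged genes called. Only 200 genes were changed there, in random directions, above a minimum control level and with a common dispersion for all genes. In the data 40.9% of genes were called higher and 38.7% lower, so the simulation does not measure the error rate of these calls. No 2 libraries agreed within sampling noise (chi-square per degree of freedom 5.01 to 18.4). Same-numbered libraries did not all deviate together, so the numbers were not taken as pairs.

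Named were all 10 members, the eIF2 kinases, PPP1R15B, and in each list up to 3 called genes per direction with the largest absolute log2FC and a mean of at least 1 CPM, plus the 3 genes nearest to ATF4 and to DDIT3. SESN1, SESN3, TRIB1, PSPH, CHAC1, CEBPG and the marker genes were named after their values were seen. The members and lists were chosen with earlier results of these data known. Promoter sequences were not analysed here. The alternatives were other scalings, filters and tools, the t.test function, the study's thresholds, the replicate block and leaving out each library.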

Additional observations from a re-analysis of the deposited data

How the results depend on the processing

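All 10 transcripts kept their direction under every alternative run, and all but SESN2 kept an adjusted p under 0.05. SESN2 had a log2FC of 0.18 but lost the call with the t.test function on log2(CPM + 1) (adjusted p = 0.0778), and it ranged from 0.12 to 0.21 when single libraries were left out. With the replicate block, which rests only on shared numbers (correlations of same-numbered deviations 0.27, -0.03 and -0.21), 5123 genes were called higher and 4869 lower, SESN2 stayed at 0.18 (adjusted p = 0.0103) and ATF4 at 0.70, and no member's call changed. Not every library correlated best with its own number. Under the study's thresholds, 5 members were higher and 1 lower, and 1730 and 2174 of all genes. With library size only, 7921 genes were called higher and 2861 lower. Called higher and lower were then 11 and 1 eIF2-related genes, 5 and 2 transporters, 1 and 7 tRNA synthetases, 17 and 2 stress regulators, 21 and 4 bZIP partners, 12 and 4 genes of the ATF6 and XBP1 arms, 11 and 0 p53-induced genes, and 3 and 2 glucocorticoid-induced genes. This scaling leaves out the TMM factors, whose group means were 0.847 and 1.18. The cause of the SESN2 changes was not tested.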
